A study of Homo sapiens with 44 samples.

Results

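The peaks described here are stretches of open chromatin in Ccd18-Co cells, a human colon fibroblast line, that gained coverage after IL-13 and after none of the other cytokines of the series. They numbered 486 of the 407383 peaks in the deposited ATAC-seq table, an assay in which a transposase cuts accessible DNA. They were chosen on the measured values. Coverage in each peak was divided by the library's summed coverage in megabases (Mb) and put on a log2 scale after adding 0.5, and the difference is a group's mean minus the mean of the unstimulated libraries. A peak was kept where the difference with IL-13 was at least 0.8, the mean coverage with IL-13 was at least 3, and the difference was under 0.4 with each of the other 9 cytokines. The levels after IL-13 and the absence of a gain after the other cytokines are therefore how the peaks were selected and are given below as a description, with no test.

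The series held 44 libraries in 11 groups of 4, with cells that were left unstimulated or given 1 recombinant cytokine in serum-free medium. By the labels IL-1β was used at 0.1 ng/ml, though a figure legend of the study gives a lower dose, and IL-13, OSM, TNF, TGF-β1, IFNγ, IFNα, IL-6, IL-22 and IL-17A each at 10 ng/ml. The labels do not say whether the replicates were separate cultures, so the p-values below measure only the spread between these samples. All libraries came from 1 line, and more open cells and more open chromatin per cell cannot be told apart in such bulk samples.

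The library labelled IL-6 replicate 4 stood apart from its group. It was the shallowest library, with 148.8 Mb of summed coverage against 239.8 to 823.1 Mb in the other 43, and its median difference over the 486 peaks was 0.83, whereas IL-6 replicates 1 to 3 lay at 0.03, 0.16 and 0.10. The selection took IL-6 as replicates 1 to 3, so this library alone had no part in it. With all 4 IL-6 libraries in the rule, 367 of the peaks would have been kept. Peaks at the start sites of 9 of the 10 fibroblast marker genes ranked between the 87.8th and 99.8th percentile of all peaks, among them COL1A1, COL1A2 and VIM, and THY1 had no peak within 1 kb. No peak lay within 1 kb of the start of the epithelial genes CDH1, KRT20 and VIL1 or the leukocyte genes PTPRC, CD3E and SPI1, while the leukocyte marker CD68 had an open promoter in these cells, with a coverage of 26.3. The epithelial genes KRT8 and EPCAM had peaks of 4.60 and 2.29, at the 86.6th and 76.7th percentile.

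IL-13 is a cytokine of allergic and anti-helminth immunity that also acts on fibroblasts. It binds a receptor made of IL-4Rα and IL-13Rα1, whose kinases phosphorylate the transcription factor STAT6. STAT6 dimers bind a palindrome of the half-sites TTC and GAA, and the spacing between the half-sites sets STAT6 apart from most other STAT proteins, which favour a spacer shorter by a base. The string with a 4-base spacer, TTCNNNNGAA, which reads the same on both strands, was therefore looked for in all peaks. The 7 stretches below come from the peaks with the highest IL-13 differences that held it, and from the promoter peak of NMUR1. They are equal stretches of the hg38 plus strand, 5′ to 3′, around the string nearest to the peak's centre, which is in capitals. Not all such stretches are shown, and none that overlapped an exon. They lie at chr22:44380624-44380744, chr4:89469374-89469494, chr1:202566292-202566412, chr3:55166139-55166259, chr2:97747892-97748012, chr13:33123327-33123447 and chr2:231531860-231531980, and each is named by the gene that the deposited table gives for its peak.
LINC01656: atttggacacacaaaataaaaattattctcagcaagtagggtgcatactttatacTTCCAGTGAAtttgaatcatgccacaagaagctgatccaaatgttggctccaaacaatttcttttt
GPRIN3: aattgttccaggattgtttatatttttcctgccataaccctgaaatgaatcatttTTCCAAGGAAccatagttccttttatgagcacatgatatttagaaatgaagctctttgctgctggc
SYT2: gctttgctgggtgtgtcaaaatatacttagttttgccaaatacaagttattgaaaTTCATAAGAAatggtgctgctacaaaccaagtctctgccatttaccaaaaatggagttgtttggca
LRTM1: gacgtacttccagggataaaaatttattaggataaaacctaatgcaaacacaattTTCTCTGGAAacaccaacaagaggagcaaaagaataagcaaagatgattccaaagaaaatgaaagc
ZAP70: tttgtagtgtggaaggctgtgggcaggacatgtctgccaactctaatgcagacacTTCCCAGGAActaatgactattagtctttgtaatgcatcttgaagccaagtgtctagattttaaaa
STARD13-AS: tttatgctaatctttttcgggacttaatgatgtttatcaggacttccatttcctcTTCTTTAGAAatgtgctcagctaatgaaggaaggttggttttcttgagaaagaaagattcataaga
NMUR1: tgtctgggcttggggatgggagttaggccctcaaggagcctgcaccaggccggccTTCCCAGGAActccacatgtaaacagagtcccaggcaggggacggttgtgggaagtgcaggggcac

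The string lay close to the peak's centre in GPRIN3 (16 bases), ZAP70 (17 bases) and NMUR1 (25 bases before it). It lay farther out in SYT2 (75 bases), LINC01656 (87 bases), LRTM1 (120 bases) and STARD13-AS (158 bases). ZAP70 and NMUR1 shared the same 10 letters, TTCCCAGGAA. The STARD13-AS peak held 3 copies of the string and the LRTM1 peak 2.

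Over all members, 175 of 486 held the string (36.0%, 95% Wilson interval 31.9 to 40.4%), against 14.4% of all peaks. Peaks chosen by the same rule for other cytokines did not share the high figure, which was 13.1% in the 848 peaks of IFNγ, 15.7% in the 479 of OSM and 12.8% in the 368 of TNF. In the central 200 bases the figures were 20.4% of members and 5.78% of all peaks. Only the spacer of 4 bases stood out among spacers of 0 to 8 bases. Its share in members was 2.51 times that in all peaks, while the other 8 spacers gave ratios from 0.61 to 1.25. In the OSM peaks the largest ratio was 1.61, at a spacer of 3 bases. By position, 6.38% and 6.17% of members held the string in the 50 bases before and after the centre, falling to 2.47% and 2.26% in the outermost bins, whereas all peaks lay between 1.40% and 1.70% throughout. The commonest of the strings, TTCCAAGGAA, which the GPRIN3 stretch shows, occurred in 16 members (3.29%) and in 0.305% of all peaks. These are matches of letters and not measured binding.

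**Figure D1:**
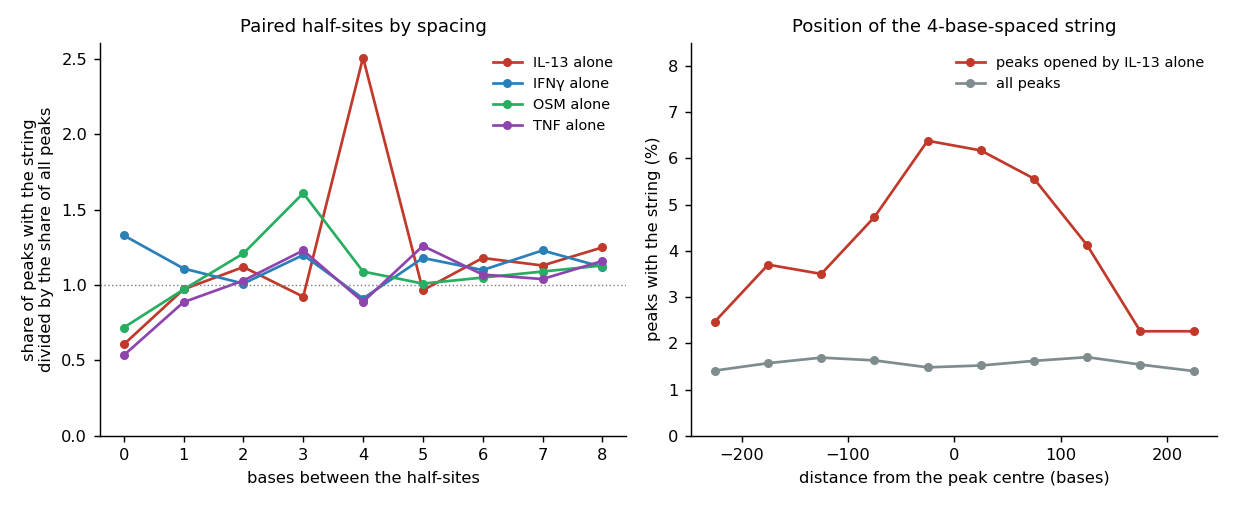
Left, the share of peaks holding TTC and GAA half-sites divided by the share of all peaks (y axis) by the number of bases between them (x axis), for the peaks of 4 cytokines under the same rule. Right, the share of peaks (%) with the string of 4-base spacing by its distance from the peak centre in bases. The IL-13 line reaches 2.51 at a spacer of 4 bases, and the string is most frequent at the centre of the 486 peaks.

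The peaks with the highest differences held it more often, at 26 of the first 50 (52.0%), 47 of the first 100 (47.0%) and 128 of the remaining 386 (33.2%). Letters of other factors ran differently. The AP-1 string TGANTCA was in 17.3% of members and 25.7% of all peaks, against 41.8% of the OSM peaks and 41.0% of the TNF peaks. The NF-kB string GGGNNTTTCC was in 1.65% of members and 27.2% of the TNF peaks, and the interferon element TTTCNNTTTC in 5.97% of members and 50.5% of the IFNγ peaks. The TEAD string CATTCC was in 42.6% of members against 28.7% of all peaks, and the forkhead string TGTTTAC in 13.6% against 8.37%. In the peaks chosen by the same rule for TNF, OSM and IFNγ the TEAD string was in 38.3%, 35.7% and 29.7%, and the forkhead string in 8.70%, 10.0% and 11.3%. The CArG box, the site of serum response factor, was in 9.05% of members, 3.20% of all peaks and 2.30% to 3.66% of the OSM, TNF and IFNγ peaks. The CArG box was added after values of these data were seen. All strings were counted on both strands and may overlap, and members had a median GC content of 42.6% against 45.0% in all peaks.

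Over the 486 peaks, the median coverage was 2.89 in unstimulated cells and 6.67 after IL-13. The difference ranged from 0.80 to 2.94 with a median of 0.97, and the ratio of the group means from 1.72 to 9.04 with a median of 2.11. All 4 IL-13 libraries lay above all 4 unstimulated libraries in 400 members (82.3%, against 2.62% of all peaks), and above all 39 other libraries used by the rule in 256 members (52.7%, against 0.203%). The limma call of a gain was met by 300 of the members, where 0.905% of all peaks met it. The rule used this contrast, so nothing further is read from these counts. The 4 IL-13 libraries had median differences of 1.03, 1.08, 1.04 and 0.94.

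**Figure D2:**
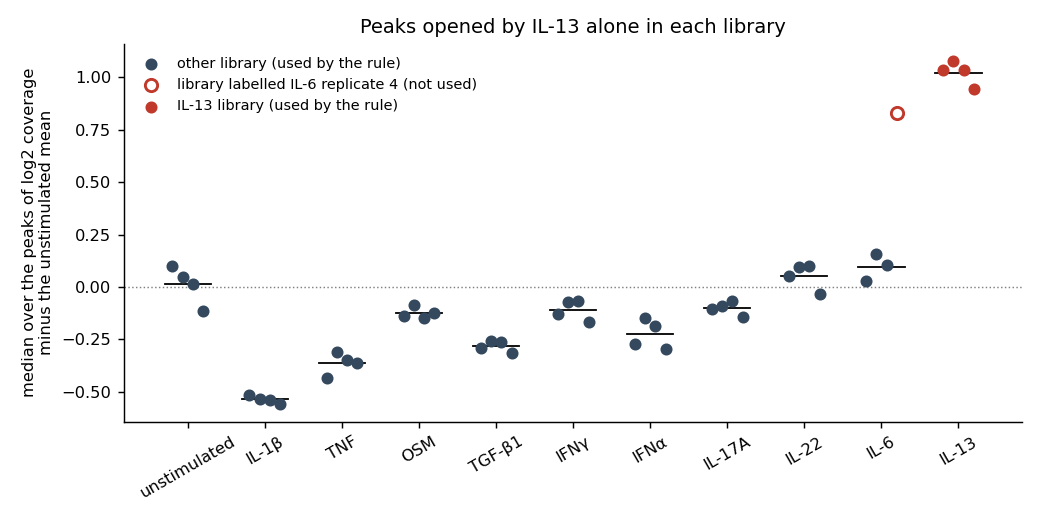
Each point is a library, and the y axis is the median over the 486 peaks of its log2 coverage minus the unstimulated mean. Bars are the means of the libraries the rule used. The IL-13 libraries lie between 0.94 and 1.08, those of IL-1β from -0.56 to -0.51, and the library labelled IL-6 replicate 4 (open circle) at 0.83.

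The largest gain was at an intergenic peak assigned to LINC01656, a long non-coding RNA gene (chr22:44380346-44380846). Its coverage was 1.92, 2.85, 0.706 and 1.72 in the unstimulated libraries and 14.8, 21.0, 12.8 and 16.6 after IL-13, and no other library of the rule passed 3.41. The groups did not overlap, and the ratio of means was 9.04 (1.80 ± 0.88 to 16.3 ± 3.48, SD, n = 4 each). The next was a peak over the annotated UTR of FTCD, which encodes an enzyme of histidine breakdown (chr21:46137327-46137827), at 1.80, 0.398, 2.87 and 1.25 without stimulation and 10.2, 9.72, 12.8 and 7.03 after IL-13. It lies just beyond the type VI collagen gene COL6A2, in the locus described below.

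The peak assigned to GPRIN3 (chr4:89469167-89469667) lay in an intron of a long non-coding RNA gene. It rose from 1.77, 1.33, 2.29 and 1.41 to 14.3, 10.1, 6.79 and 8.94 in the 4 libraries. The peak assigned to SYT2 (chr1:202566026-202566526) lay in an intron of PPP1R12B, a regulatory subunit of myosin phosphatase, and had 2.49, 1.22, 1.98 and 0.494 before and 6.21, 8.43, 8.55 and 10.1 after IL-13. In each the lowest IL-13 library was above the highest unstimulated one. The peak assigned to STARD13-AS (chr13:33122978-33123478) lay in an intron of STARD13. Its 3 copies of the string went with coverage of 5.85, 6.88, 7.30 and 3.14 without stimulation and 21.7, 18.3, 20.7 and 19.3 with IL-13. An intergenic peak assigned to ZAP70, a T cell receptor kinase (chr2:97747684-97748184), went from 3.52, 3.64, 5.36 and 4.27 to 16.4, 14.2, 15.5 and 16.4 and was 1 of 3 members within 2.45 kb. The remaining 6 of the first 12, among them 3 peaks at COL6A1 and those at LRTM1 and DNASE1, had differences of 1.78 to 2.12. The 3 COL6A1 peaks and the FTCD peak, 4 of the 12, were those without the STAT6 string.

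**Figure D3:**
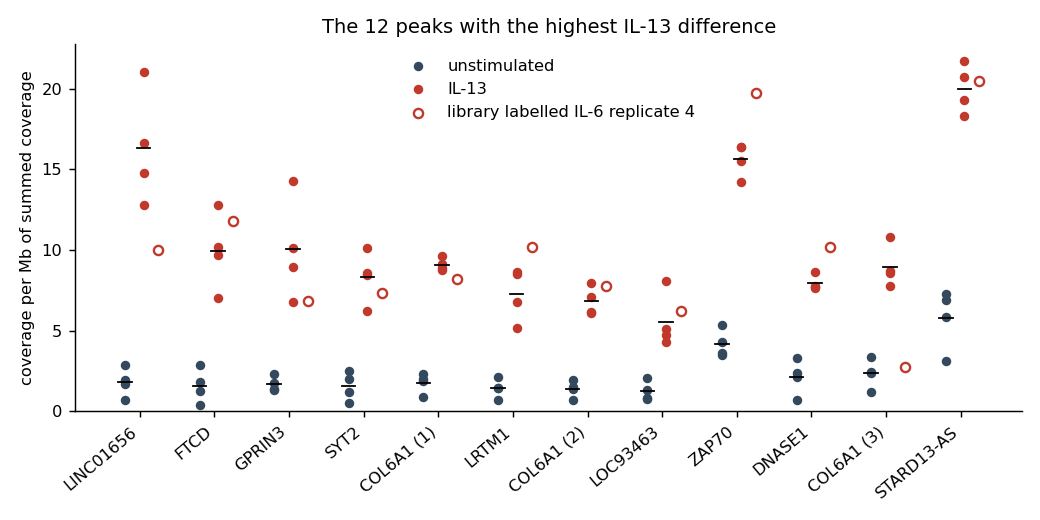
Coverage per Mb of summed coverage (y axis) in the 12 members with the highest IL-13 difference, for the 4 unstimulated libraries, the 4 IL-13 libraries and the library labelled IL-6 replicate 4, with bars at the group means. No IL-13 library overlaps the unstimulated libraries, and the open circle lies among or above the IL-13 points in most peaks, at 2.76 in the third COL6A1 peak (chr21:45995507-45996007).

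Members lay away from promoters. The deposited classes put 291 of them in introns (59.9%, against 51.7% of all peaks), 148 in distal sequence (30.5% against 34.5%), 30 in exons and 17 in promoters (3.50% against 7.15%). Of peaks with the same minimum of IL-13 coverage, 18.9% were promoters. The low share was also seen for peaks chosen the same way for IFNγ (4.72%), OSM (4.17%) and TNF (2.99%). Within 1 kb of a GENCODE start site lay 27 members (5.56%, against 10.4% of all peaks).

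The promoter member with the most coverage among the leading 5 was that of INHBE, which encodes a subunit of activins (chr12:57452128-57452628, 55 bases from the start site). It had 11.1, 15.7, 14.3 and 12.3 without stimulation and 33.0, 27.3, 36.6 and 34.9 after IL-13, and the highest other library of the rule reached 16.5. NMUR1, a receptor for neuromedin U, had the largest difference of the class (1.47), from 1.64 ± 1.05 to 5.15 ± 1.43. Peaks classed as promoter at SPG21, C10orf142 and TPM2 had differences of 1.19, 1.08 and 1.04, and TPM2 encodes a tropomyosin of the actin filament. CCL11, which encodes eotaxin, a chemokine that attracts eosinophils, had a promoter member as well (chr17:34285332-34285832), at 7.64, 9.46, 9.25 and 4.86 without stimulation and 17.9, 10.7, 15.5 and 15.7 after IL-13.

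Chromosome 21 held 30 members among 4980 peaks, or 6.02 per 1000, and the next chromosome, 11, held 1.71 per 1000. Of these, 25 lay in a single locus of 166.2 kb that runs over COL6A1 and COL6A2 and ends in FTCD (chr21:45971580-46137827). COL6A1 and COL6A2 encode chains of type VI collagen, a beaded filament collagen of the fibroblast's surroundings. The locus held 102 peaks in all, of which 44 had a difference of at least 0.8 with IL-13 and 86 were above 0. Another 19 peaks thus met the IL-13 limit without being members.

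Within COL6A1 itself, 16 of 19 peaks were called raised by limma and the median difference was 1.503. Within COL6A2 it was 10 of 14, with a median of 1.26, and within FTCD 2 of 8, with a median of 0.11. Between the 2 genes 10 of 51 peaks were called, with a median of 0.44. In the 10 peaks before the first member none was called, with a median of 0.16, and in the 7 peaks after the last 1 was called, with a median of -0.02. These counts are a description, since the locus was picked out by its members. At the COL6A1 start site (chr21:45981252-45981752) the coverage was 7.03 ± 1.12 without stimulation and 6.13 ± 1.28 with IL-13 (log2 change -0.19 ± 0.21 SE, limma adjusted p = 0.807). At COL6A2 the promoter peaks chr21:46097325-46097825 and chr21:46097864-46098364 had differences of 1.22 and 1.29 and were called raised, but were also higher with other cytokines. Over the other 9 cytokines their median differences were 0.397 and 0.412, and their highest 0.59 and 0.58.

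The leading intronic peak of COL6A1 (chr21:45996017-45996517) had 2.33, 1.91, 0.904 and 1.99 without stimulation and 8.89, 8.74, 9.60 and 9.13 after IL-13. A peak over a coding exon (chr21:46000260-46000760) had 1.94, 1.36, 1.53 and 0.717 and then 6.15, 6.11, 7.08 and 7.96. The IL-13 libraries were close to each other and far above the rest in both. In COL6A2 the intronic peak at chr21:46116857-46117357 went from 0.214, 1.28, 1.97 and 1.08 to 3.97, 3.65, 3.62 and 3.77. The 25 members of the locus differed from the others in sequence. Only 3 held the STAT6 string (12.0%), and their median GC content was 61.2%. Neighbouring peaks of the locus can share fragments and are not independent of each other. In the library labelled IL-6 replicate 4 the median difference was 1.13 inside COL6A1 and 1.11 inside COL6A2.

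**Figure D4:**
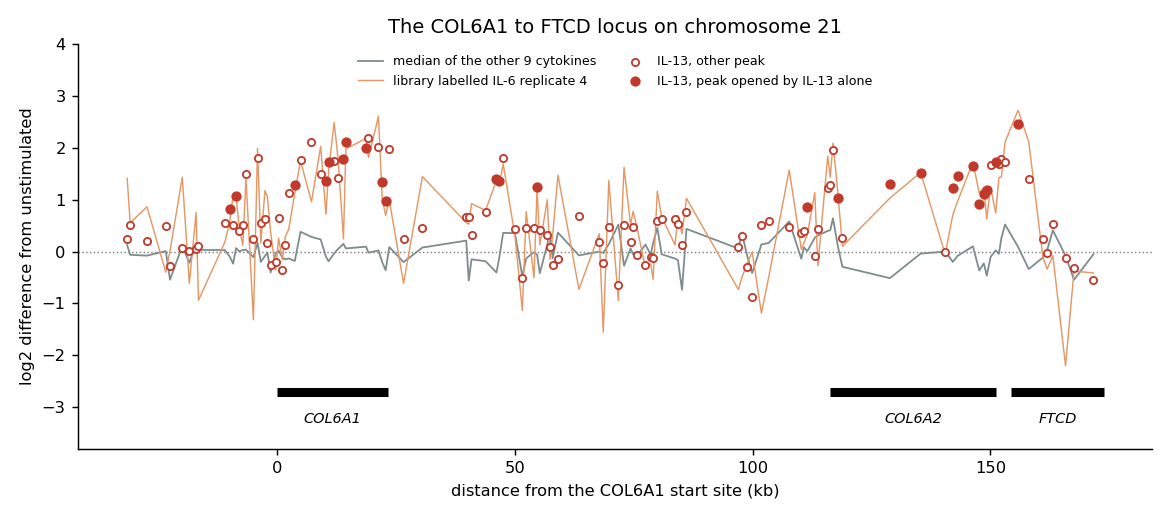
Log2 difference from unstimulated cells (y axis) by distance from the COL6A1 start site in kb (x axis), with gene bodies as bars. Points are IL-13 (filled for members), the grey line is the median of the other 9 cytokines and the orange line the library labelled IL-6 replicate 4. IL-13 points are high over COL6A1 and from COL6A2 into the near end of FTCD. The grey line lies between -0.74 and 0.64, and is at 0.40, 0.41 and 0.64 at the start of COL6A2. The IL-13 medians are 1.503 inside COL6A1, 1.26 inside COL6A2 and 0.11 inside FTCD.

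Genes of the contractile apparatus recurred among the members. They were gathered in a list of 21 after values of these data were seen, and its counts are a description. Of these genes, 14 had a member within 10 kb, 23 members in all, which is 21.3 per 1000 of the 1081 peaks near them against 1.19 per 1000 over all peaks. Only 76976 of all peaks had the IL-13 coverage that the rule asked for, and a comparison within those peaks was not made. The largest difference was in an intron of SMTN, which encodes smoothelin, a protein of contractile smooth muscle (chr22:31090222-31090722). Coverage there was 5.38, 5.11, 8.60 and 2.62 without stimulation, 13.9, 16.1, 20.5 and 13.3 after IL-13 and 2.62, 0.658, 1.72 and 1.02 after IL-1β. The IL-13 libraries lay above those of both other groups, and the unstimulated and IL-1β libraries met at 2.62.

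An intronic peak of MYL9, the regulatory light chain of myosin (chr20:36553371-36553871), had 1.77, 2.67, 2.41 and 1.36 without stimulation and 5.43, 6.71, 6.46 and 6.08 after IL-13. Differences were 1.17 in FHOD3, an actin-nucleating formin, 1.16 in CALD1 (caldesmon) and up to 1.19 over 4 peaks of FLNA, the actin cross-linker filamin A. ACTG2, which encodes the gamma actin of smooth muscle, had 3 intronic members with differences of 0.88 to 0.95, none of them called raised by limma. TAGLN (transgelin) had 2, at 0.93 and 0.85, and single members lay at TPM1, TPM2, MYH11, MYLK, SVIL and LMOD1. Those at MYH11 and LMOD1 were not called raised. No member was near CNN1, DES, VCL, SRF or MYOCD. Over all peaks, without a match for coverage, 0.905% were called raised by IL-13 and 1.1% lowered. At the start sites of the listed genes 3 of the 18 genes with a peak were called raised and 0 lowered. They were ACTG2 (23.9 ± 1.20 to 41.2 ± 7.26, log2 change 0.77 ± 0.12 SE, limma adjusted p = 1.33e-06), TAGLN (0.48 ± 0.079, adjusted p = 3.24e-06) and FLNA (0.99 ± 0.28, adjusted p = 0.0307). ACTA2 encodes the alpha actin of myofibroblasts. At the outermost annotated start of its gene (chr10:88991156-88991656) coverage was 9.76 ± 1.62 without stimulation and 9.18 ± 1.62 after IL-13 (limma adjusted p = 0.931). Whether this is the start site used in these cells was not examined.

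Among 33 matrix and fibrosis genes, 7 had a member within 10 kb (as did 1.95% of all protein-coding genes), 22 members in all, 10 of them at COL6A1. That is 16.5 members per 1000 peaks near the listed genes, against 1.19 over all peaks, again without a match for coverage. COL6A3, the third chain of type VI collagen, had 2 with differences of 0.95 and 0.87, neither of them called raised by limma. SPARC, a collagen-binding matrix protein, had 3 that lay in the overlapping non-coding gene CLMAT3, with a highest difference of 0.99. FBN1 (fibrillin-1) had 2 with a highest of 0.94, and ASPN (asporin) 1 at 0.92 that was not called raised. ACTA2 and TAGLN, which both lists hold, gave the remainder. No member lay near COL1A1, COL1A2, COL3A1 or FN1. At start sites, where the calls over all peaks were 0.905% raised and 1.1% lowered, 2 of 29 genes with a peak were called raised, TAGLN and LOX, an enzyme that crosslinks collagen (13.4 ± 2.17 to 19.6 ± 1.90, log2 change 0.55 ± 0.15 SE, adjusted p = 0.0193), and 3 were called lowered. These were the collagen-degrading metalloproteinase genes MMP1 (-0.74 ± 0.20, adjusted p = 0.0191) and MMP14 (-0.62 ± 0.15, adjusted p = 0.00411) and the stromelysin gene MMP3 (-1.25 ± 0.23, adjusted p = 2.7e-05). The median log2 change of this list's start sites was 0.11, against -0.05 over all peaks tested.

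None of the 21 genes of the IL-13 receptor pathway had a member within 10 kb, where 391 of 20046 protein-coding genes did (1.95%). At their start sites 2 of 20 with a peak were called raised and 0 lowered, beside 0.905% and 1.1% of all peaks. SOCS1, an inhibitor of JAK kinases that STAT6 induces, went from 13.5 ± 2.24 to 28.6 ± 6.98 (1.05 ± 0.14 SE, adjusted p = 2.99e-10). It was no member because its difference reached 0.81 with another cytokine. CISH, a related inhibitor, went from 8.62 ± 0.737 to 14.8 ± 1.01 (0.75 ± 0.19 SE, adjusted p = 0.00697) and stayed under the IL-13 limit. Of 35 known type 2 target genes 3 had a member, CCL11, TNC (0.94) and PPARG (0.84), and at start sites 2 of 22 were called raised and 0 lowered. These were CCL11, itself a member, and POSTN, which encodes periostin (0.611 ± 0.689 to 2.85 ± 0.871, adjusted p = 0.00152), and POSTN missed the minimum of coverage and exceeded the limit of 0.4 with another cytokine, at 0.56. CCL26, a chemokine that IL-13 induces in epithelium, was near 0 in both groups, at 0.633 and 0.531.

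The rule asked only that other cytokines did not raise these peaks, and it left room for a fall. IL-1β gave the lowest values, with a median difference of -0.54 over the members (0.02 over all peaks), 428 of 486 below 0 and 295 at least 0.4 below. For TNF the median was -0.38 (-0.05 over all peaks), for TGF-β1 -0.28 (0.12) and for IFNα -0.24 (-0.02). Below 0 were 82.1% of members with TNF (55.04% of all peaks), 76.8% with TGF-β1 (38.7%) and 75.1% with IFNα (51.8%). IL-17A and IFNγ lay at -0.12 and -0.12, with -0.02 and -0.03 over all peaks. OSM lay at -0.14, above its median of -0.21 over all peaks. IL-22 (0.03) and IL-6 replicates 1 to 3 (0.10) lay near 0. All 4 libraries of each cytokine but IL-13, IL-22 and IL-6 had a median below 0. All 10 cytokines share the unstimulated libraries, and the upper limit of the rule cuts these values on 1 side, so they are a description.

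Limma called 144 members lowered by IL-1β, where 1.98% of all peaks were, 79 by TNF (1.91% of all peaks), 53 by TGF-β1 (1.74%), 31 by OSM (1.62%), 16 by IFNα (0.44%) and 14 by IFNγ (0.36%). Many of all peaks had less coverage than the rule asked for. Among the 168529 peaks with log2 mean coverage over 0, fitted alone, lowered calls were 9851 for IL-1β, 9189 for TNF and 9009 for TGF-β1. For OSM, IFNα and IFNγ they were 5581, 2601 and 1969. No member was called lowered by IL-17A, IL-22 or IL-6 replicates 1 to 3, where limma called 0.0103%, 0.00614% and 0.00196% of all peaks lowered. At an unadjusted p under 0.05, 44, 13 and 7 members were lower, and 28712, 31645 and 22076 of all peaks differed in either direction. IL-1β and TNF shared 56 of their calls, 38.9% and 70.9% of each, and 294 members were called lowered by no cytokine. In 64 members all 9 other cytokines stayed within 0.4 of the unstimulated mean. The shared calls, the members lowered by no cytokine and this last count have no figure over all peaks beside them. They describe the members only.

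**Figure D5:**
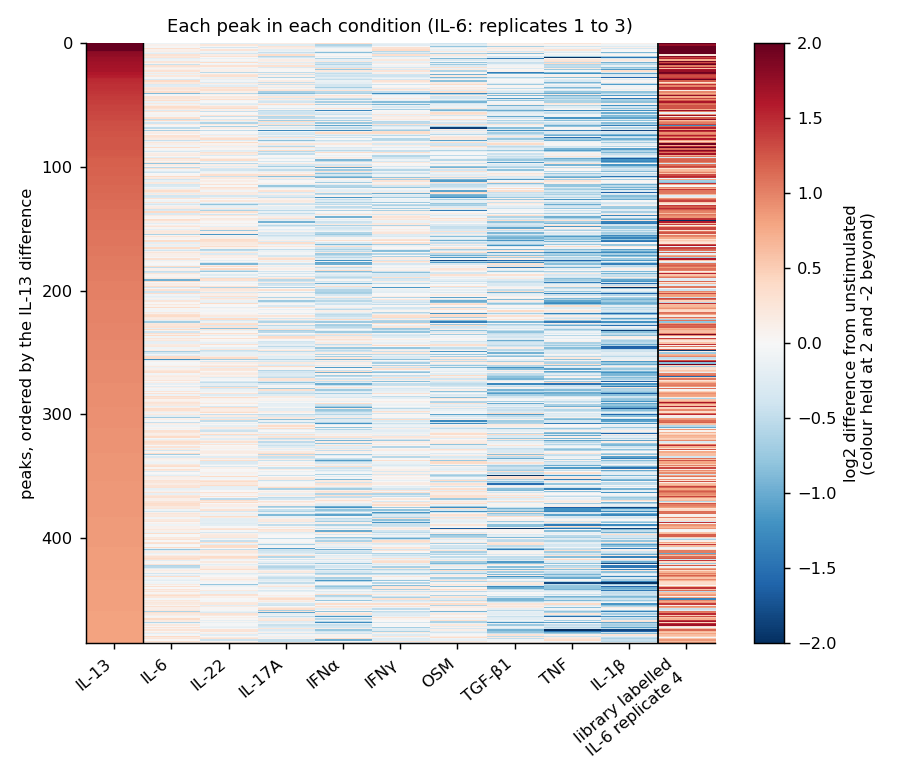
Each row is 1 of the 486 members, ordered by the IL-13 difference, and each column a cytokine. Colour is the log2 difference from unstimulated cells. Blue, a loss, is most frequent with IL-1β (428 members below 0) and TNF (399), and the last column, the library that the rule did not use, is mostly red (427 above 0).

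The lowest value with IL-1β was in the antisense gene ACTA2-AS1, next to ACTA2 (chr10:88933112-88933612). Coverage was 4.80, 7.05, 6.73 and 4.35 without stimulation, 11.8, 13.3, 11.2 and 11.1 after IL-13 and 0.817, 0.910, 1.18 and 0.895 after IL-1β. The 3 groups did not overlap, and the IL-1β difference was -2.08. With TNF the lowest were intergenic and intronic peaks assigned to OSBPL8 (chr12:76630429-76630929), at means of 16.7 without stimulation, 29.1 after IL-13 and 2.93 after TNF, and to CNGA3 (chr2:98269793-98270293, an intron of VWA3B), at 10.2, 34.5 and 2.02. A peak near SPSB1 was low with both, at -1.94 with IL-1β. CCL11 had between 1.76 and 2.52 after IL-1β, all below its 4 unstimulated libraries. Of the 23 members near contractile genes 11 were called lowered by IL-1β and 4 by TNF, where 29.6% and 16.3% of all members were.

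The library labelled IL-6 replicate 4 gave values that the rule did not use. It was above the unstimulated mean in 427 members, by at least 0.8 in 253 (52.1%, against 15.5% of all peaks). It was above every library outside the IL-13 group in 297 members (61.1%, against 9.70%), and within or above the IL-13 range in 288 (59.3%), a share that was 75.7% over all peaks. Limma called 104 members higher in it than in unstimulated cells (21.4%), where 1.54% of all peaks were, and 3 lower. Against IL-6 replicates 1 to 3 and IL-22, a reference added after the data were seen, 113 were higher (23.3%, against 1.97% of all peaks). The shares over all peaks were not matched for coverage. The unstimulated libraries of the first contrast had a part in the selection. Its term rests on 1 library, assumed to vary like the others, and what set it apart was not tested.

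Its coverage at the LINC01656 peak was 10.0, where IL-6 replicates 1 to 3 had 2.75, 1.95 and 2.03 (log2 change against unstimulated 2.30 ± 0.47 SE, limma adjusted p = 0.000255). At the FTCD peak it was 11.8 (2.73 ± 0.52, adjusted p = 4.11e-05), at ZAP70 19.7 (2.14 ± 0.39, adjusted p = 2.07e-05) and at LRTM1 10.2 (2.52 ± 0.51, adjusted p = 0.000177). The largest difference was at PEMT, a gene of phosphatidylcholine synthesis, with 11.6 against 3.96 to 5.37 in the IL-13 libraries. Some members did not follow. The third COL6A1 peak of the leading 12 had 2.76, against 7.79 to 10.8 after IL-13 (adjusted p = 0.726), NMUR1 had 1.98, and the 4 FLNA members had a median difference of -0.14. Members with the STAT6 string had a median of 0.95 in this library and those without 0.78, and limma called 47 of 175 (26.9%) and 57 of 311 (18.3%) higher.

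Most members stood alone. No other member lay within 50 kb of 373 of them, and the other 113 formed 42 clusters, 8 of which had at least 3 members. The clusters with the most members were the 13 and 12 that make up the collagen VI locus, followed by 4 at SPARC and CLMAT3 (chr5:151676585-151707987) and 4 at FLNA (chrX:154352875-154373122). Peaks next to a member that were not members had a median IL-13 difference of 0.36 within 1 kb (343 peaks, 15.7% at 0.8 or more), 0.13 at 1 to 2 kb, 0.09 at 2 to 5 kb and 0.06 at 5 to 10 kb. Beyond 200 kb the median was -0.05. In the first of these bins the library labelled IL-6 replicate 4 had 0.35 and IL-1β -0.18.

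Just inside the limit were peaks assigned to SNX33 (0.8007), MIR544B (0.8012) and TRAF6 (0.8013). Just outside lay peaks at CLMP (0.7999), PRSS38 (0.7999) and LOC100506403 (0.7994).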

How the data were processed

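ATAC-seq libraries of Ccd18-Co cells, 4 per group by GEO's labels, were read from 1 deposited table. Its values are signal: summed read coverage over 500-base peaks, made by the authors and not scaled by depth. They are not read counts, so limma 3.58.1 (R 4.3.3) on log2 values was used. Per the labels, the submitters' processing notes name hg38 and MACS2, and the study describes the ENCODE ATAC-seq pipeline, which shifts reads for the transposase. The study also describes 500-base peaks of fixed width from its single-cell ATAC-seq data, and whether the table uses that set is not given in the sources used here. Every peak lay inside its hg38 chromosome, and GENCODE 44 gave annotations. Summed coverage ran from 148.8 to 823.1 Mb, and deeper libraries give steadier values.

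Coverage per Mb of summed coverage was divided by a factor for composition, from trimmed log ratios to the geometric mean library, 0.5 was added, and peaks with a log2 mean coverage over -3 (407174) were fitted with 12 terms, the library labelled IL-6 replicate 4 as its own. Changes are therefore on the log2(value + 0.5) scale and understate those of low peaks. Trended variances and Benjamini-Hochberg adjustment over all tested peaks at 0.05 were used. The median of all tested peaks moved by -0.22 with OSM and 0.15 with TGF-β1, and by under 0.1 with the other cytokines. The fit was tested on simulated data. Members and gene lists were chosen with earlier results of these data known. Peaks named were the 12 highest differences, the 5 highest promoters, the 10 highest with a listed gene, the 3 clusters with most members, the 5 highest in the library labelled IL-6 replicate 4, the 3 lowest with IL-1β and with TNF, and those next to the limit. The contractile list, its genes' members, members near the other listed genes and the CArG box were named after values were seen. Wilson intervals cover sampling of peaks only. Alternatives were other scalings, pseudocounts, filters and limits, a replicate block and each library left out.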

Additional observations from a re-analysis of the deposited data

Results flagged for a closer look

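The library labelled IL-6 replicate 4, which the selection did not use, was at least 0.8 above the unstimulated mean in 253 members. Its median difference of 0.828 also lay far from those of the other 3 libraries in its group. What set it apart was not tested.

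A library far from the rest of its group by Dixon's test was found in 9 of 119 groups, where chance gives about 5%. In the IL-13 group these were replicate 1 at DNASE1 (8.62), at the COL6A1 peak chr21:46004383-46004883 (4.97) and at CNGA3 (39.4), replicate 3 at SNX33 (18.6) and at PRSS38, which lies outside the limit (0.991), and replicate 4 at SPSB1 (6.99). In the unstimulated group they were replicate 3 at NMUR1 (3.20) and at the FTCD peak chr21:46130126-46130626 (2.21).

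The median difference over the members was above 0 in all 4 IL-13 libraries and below 0 in all 4 libraries of 7 other cytokines. Their group medians were -0.54 for IL-1β, -0.38 for TNF, -0.28 for TGF-β1, -0.24 for IFNα, -0.14 for OSM, -0.12 for IL-17A and -0.12 for IFNγ. Over all peaks they were 0.02, -0.05, 0.12, -0.02, -0.21, -0.02 and -0.03 in the same order, so that OSM lay above its own median. The selection fixes part of this contrast, and the difference between the groups was not tested.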

How the results depend on the processing

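The number of members was 209 with a limit of 1 for IL-13 and 288 with a limit of 0.3 for the other cytokines, and between 367 and 701 under other scalings, pseudocounts, coverage minimums and all 4 IL-6 libraries. The STAT6 string share was 44.0% with the limit of 1 and 20.4% in the central 200 bases. The promoter share was 5.56% by distance from a start site. Leaving out each replicate in turn gave 18 to 29 members called lowered by OSM (18 without unstimulated replicate 2), 6 to 12 by IFNγ (8 without unstimulated replicate 1 and 6 without IFNγ replicate 4), 9 to 15 by IFNα (9 without unstimulated replicate 1) and 0 to 1 by IL-17A (1 without IL-17A replicate 2). It gave 2 to 4 start sites called raised in the receptor pathway list (4 without IL-13 replicate 1), 1 to 2 in the type 2 list (1 without unstimulated replicate 4) and 1 to 2 in the matrix list (1 without unstimulated replicates 2, 3 or 4 or IL-13 replicates 1 or 2). For members called raised by IL-13 the range was 202 to 263, and over all peaks the IL-13 count fell from 3686 to 2356 without unstimulated replicate 4. The cause of these shifts was not tested. Of 612 alternative values of the named members, 54 moved by over 1 SD of the IL-13 libraries and 0 reversed. A reversal was unlikely from the start, since members were selected for a difference of at least 0.8.

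With the replicate number as a block, 301 members were called raised by IL-13 against 300 without it. Deviations of same-numbered IL-13 and unstimulated libraries correlated between -0.00794 and 0.00816, and those of differently numbered ones between -0.0175 and 0.0129. Values this near 0 do not show whether same-numbered samples shared a culture or batch. The count of members higher in the library labelled IL-6 replicate 4 lay between 79 and 132 under all alternatives run. Over all peaks that library's higher calls were 6256, and 10499 with a pseudocount of 1, so its background count depends on the treatment of low values. Its depth limits low peaks most, since 27.1% of all peaks were at 0 in it.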

Other observations

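Beyond the genes described above, the members with the most coverage after IL-13 were intronic peaks of CDC42BPG (25.8 ± 3.66 to 48.1 ± 4.94, SD, n = 4 each), a kinase that acts on the actin skeleton, and of NFATC1, a calcium-responsive transcription factor (26.4 ± 3.57 to 46.8 ± 5.99). Next came a distal peak assigned to MIR145 (22.7 ± 4.28 to 43.9 ± 7.30), a microRNA of smooth muscle. In the library labelled IL-6 replicate 4 their differences were 0.76, 0.92 and 0.51. These genes were chosen after their values were seen.

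Members also lay on chromosome 16 at peaks that the deposited table assigns to CLEC16A and RMI2. The gene in which each of them lies was not checked. Assigned to CLEC16A were intronic members at chr16:10981661 (2.21 ± 0.745 to 6.31 ± 1.49) and chr16:11016413 (15.0 ± 4.54 to 28.0 ± 3.45). Those assigned to RMI2 were at chr16:11129223 (3.31 ± 0.483 to 9.18 ± 1.35) and chr16:11139328 (1.69 ± 0.388 to 3.68 ± 1.40). Their differences in the library labelled IL-6 replicate 4 were 1.26, 1.03, 1.71 and 0.60.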
